A study of Mus musculus with 36 samples.

Results

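Mitochondrial oxidation of fatty acids and of the branched-chain amino acids was described through 35 genes, chosen by name from the enzymes of these routes, all of which were among the 14761 genes of the deposited RNA-seq table. The cells were mouse embryonic fibroblast (MEF) lines of 3 genotypes, wild-type (WT), Mfn1-/- and Mfn2-/-, put through adipogenic differentiation with a cocktail containing rosiglitazone, dexamethasone, IBMX and insulin. Mfn1 and Mfn2 encode mitofusins, the GTPases through which outer mitochondrial membranes fuse. Libraries of Mfn1-/- cells and of WT set A to C came from day -2, day 0, day +3 and day +8, and those of Mfn2-/- cells and of WT set D to F from day -2 and day +8 alone, with 3 libraries in each of the 12 groups. The full cocktail was given at day 0, so that day -2, at confluence, preceded it and days +3 and +8 followed it. Rosiglitazone and insulin, but not dexamethasone or IBMX, were given again repeatedly between day 0 and day +8. Each genotype was a single established cell line, so an effect of the deleted gene and any other difference between lines cannot be told apart. In the main fit p-values measured the spread between libraries within groups, pooled for each gene over all 12 groups. They did not measure the spread of the compared groups alone.

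Fatty acids are activated to acyl-CoA esters, pass the inner mitochondrial membrane as carnitine esters and are shortened in repeated rounds of dehydrogenation, hydration, a second oxidation and thiolysis. Electrons from the acyl-CoA dehydrogenases reach the respiratory chain through the electron transfer flavoprotein and its dehydrogenase. Leucine, isoleucine and valine are transaminated, decarboxylated and then oxidised by related dehydrogenases, and part of their carbon leaves as propionyl-CoA, which is carboxylated and rearranged to succinyl-CoA. In adipocytes these routes run beside fatty acid storage, and branched-chain amino acids are a known carbon source for lipid synthesis in differentiated cells.

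Hadha and Hadhb, the subunits of the mitochondrial trifunctional protein, lie head to head on chromosome 5, and their start regions are shown because both genes are followed below. The RefSeq starts (GRCm38.p6) are separated by 272 bases. The window of Hadhb, from 250 bases before to 50 bases after its start, is chr5:30155003-30155302 on the plus strand, and capitals mark the 228 bases that it shares with the corresponding window of Hadha.
Hadhb: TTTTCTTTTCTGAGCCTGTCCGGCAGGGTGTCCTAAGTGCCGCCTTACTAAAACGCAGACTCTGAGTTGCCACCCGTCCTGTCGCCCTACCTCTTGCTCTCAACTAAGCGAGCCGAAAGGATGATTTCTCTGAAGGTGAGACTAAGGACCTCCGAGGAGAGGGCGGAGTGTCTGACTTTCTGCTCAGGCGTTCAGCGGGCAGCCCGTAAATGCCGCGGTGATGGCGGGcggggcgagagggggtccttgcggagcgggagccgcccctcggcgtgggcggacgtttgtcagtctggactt

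PPARs, the nuclear receptors that rosiglitazone-type drugs and fatty acids act on, bind direct repeats of AGGTCA separated by 1 base, so the RefSeq windows of 300 bases were searched on both strands for AGGTCANAGGTCA with up to 2 mismatches. Such a match was present for 3 of the 30 members with a window (10%), against 4.4% of all 27025 genes with one. The 9-base letters TCAAGGTCA, which include the half-site and are bound by estrogen-related receptors, were in no member window and in 0.466% of all genes with one. The matches are shown because they are the only ones among the members, with capitals for bases that match. The first base of the match lay 83 bases before the start in Echs1, 77 before it in Etfa and 1 before the more downstream of the starts of Pcca. A match of letters is a description of sequence and was not tested as a binding site.
Echs1 (chr7:140116492-140116504, minus strand): AGGTCAcgGGTCc
Etfa (chr9:55512308-55512320, plus strand): AGGgCAaAGGTaA
Pcca (chr14:122534327-122534339, plus strand): gGGTgAgAGGTCA

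The targeted genes were examined first. Normalised counts of Mfn1 in the libraries labelled Mfn1-/- were 165, 163 and 188 at day -2 (12.8% of the WT mean), 24.3% of it at day 0 and 18.8% at day +3. At day +8 they were 1152, 754 and 647, or 851 ± 266 (SD, n = 3), against 860 ± 52.0 in WT libraries A to C. The groups overlapped in Mfn1 RNA at day +8, and those 3 libraries are referred to below by their label. Mfn2 in Mfn2-/- cells was 24.0% of the WT mean at day -2 and 25.4% at day +8.

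Library depth ranged from 8800674 to 37011894 reads assigned to genes, with a median of 12641490.5. Fibroblast markers were represented by 9 of 10 listed genes in the table, all of which had reads in every group, and their sums at day +8 were 152145 to 262299 in the libraries labelled Mfn1-/- against 309185 to 563578 in WT, and 84480 to 90447 in Mfn2-/- against 304710 to 343785 in WT. Of 10 listed adipocyte markers 3 were analysed here, Fabp4, Lpl and Slc2a4. Their summed normalised counts at day +8 ran from 10670 to 13843 in WT A to C, from 160015 to 181153 in the libraries labelled Mfn1-/-, from 20155 to 40550 in WT D to F and from 1387 to 1556 in Mfn2-/-. At day -2 the sum was 2150 to 5448 in Mfn1-/- against 178 to 209 in WT A to C. In Mfn2-/- at that day it was 1293 to 1520 against 89.2 to 112 in WT D to F, although Fabp4 had no reads. The 6 mesothelial markers, all in the table, summed to 32533 to 36342 in Mfn2-/- at day -2 against 1310 to 1370 in WT D to F, and to 14372 to 14819 against 254 to 343 at day +8. Kdr, the 1 endothelial marker of 5 in the table, was 681 to 690 in Mfn2-/- at day -2 and at most 2.92 in WT D to F. Of the brown adipocyte markers, 3 of 7 were in the table (Dio2, Cox7a1 and Ppargc1a), and at day +8 they summed to 4544, 2824 and 1616 in the libraries labelled Mfn1-/- against 947 to 1035 in WT A to C. Des, the 1 skeletal muscle marker of 6, was 548, 290 and 190 against 14.0 to 31.3, and the 2 macrophage markers of 6, Cd68 and Csf1r, summed to 149 to 242 against 32.6 to 41.6. In the libraries labelled Mfn1-/- at day +8, the brown adipocyte and Des values had the same order, A above B above C, as most oxidation genes. Kdr, which was low there, had it too. The adipocyte sums (178419, 160015 and 181153) and the mesothelial sums (1463, 846 and 1408) did not. The fibroblast sums (152145, 223423 and 262299) and the macrophage sums (149, 160 and 242) had the reverse order. These orders of 3 libraries were not tested. The part of these marker differences in the results below was not tested. In bulk RNA, more cells of a type and more RNA per cell cannot be told apart.

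Together the 35 genes took a small share of the reads, which changed most in the libraries labelled Mfn1-/-. In WT A to C the share was 0.208 ± 0.00899% (SD, n = 3) at day -2 and 0.247 ± 0.0235% at day +8. In Mfn1-/- it was 0.228 ± 0.0126% at day -2. At day 0 it was 0.215 ± 0.00962% in Mfn1-/- and 0.197 ± 0.00428% in WT A to C, and at day +3 it was 0.328 ± 0.0620% against 0.231 ± 0.0391%. At day +8 the 3 libraries labelled Mfn1-/- gave 1.29%, 1.03% and 0.804%, all above every other library. In WT D to F the share went from 0.210 ± 0.00512% to 0.401 ± 0.0957%, and in Mfn2-/- from 0.215 ± 0.00148% to 0.228 ± 0.00805%.

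**Figure D1:**
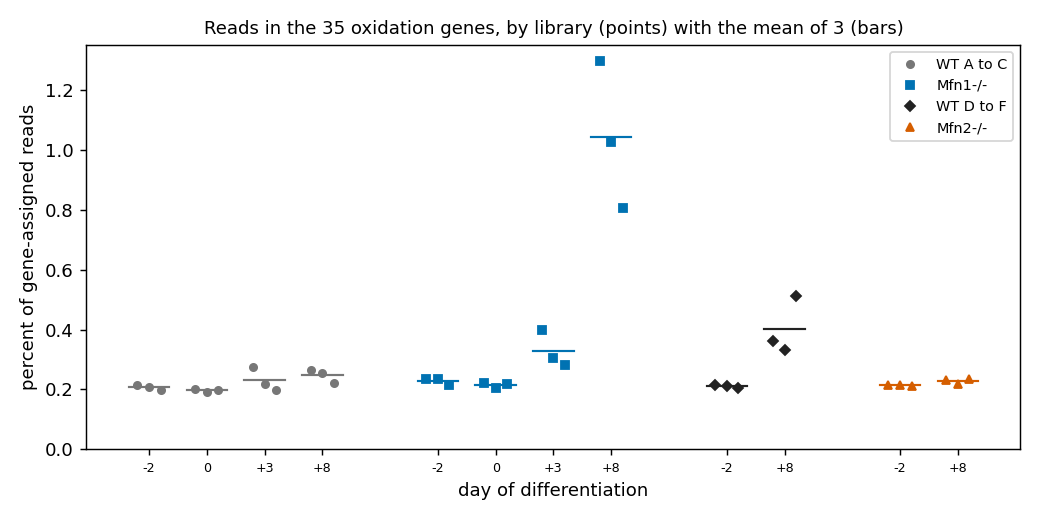
Percent of gene-assigned reads in the 35 oxidation genes for each of 36 libraries (points; bars, mean of 3) by line and day. The libraries labelled Mfn1-/- at day +8 lie between 0.804% and 1.29%, whereas the highest library of WT D to F at day +8 is at 0.510%.

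As reads per kilobase of exon, scaled to library depth, a measure that allows levels of different genes to be ordered, Etfa, Acaa2, Acadl and Acadvl were the 4 highest members in WT A to C at day +8. Etfa, the alpha subunit of the electron transfer flavoprotein, was at 72.5 there (71.4 to 73.9 over libraries) and Acaa2, a thiolase, at 76.0 (58.7 to 85.6), so that their order was within the spread. In the libraries labelled Mfn1-/- at day +8 the same 4 genes led, with Etfa at 390 (336 to 441) on this per-length scale. Acad10 was the lowest member in WT A to C at day +8, at 1.28 (1.06 to 1.65).

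At day -2, before the cocktail, 0 of 35 members were higher and 1 was lower at an adjusted p under 0.01, against 12.5% higher and 9.98% lower of the 14293 genes tested (limma on log2 of the normalised count + 1, with Benjamini-Hochberg adjustment over all genes). The gene that was lower was Acad9, an acyl-CoA dehydrogenase best known as an assembly factor of respiratory complex I, at 688, 857 and 742 in Mfn1-/- and 1049, 1121 and 926 in WT. It changed by -0.44 ± 0.12 on the log2 scale (SE; adjusted p = 0.0043), and it was no longer called when WT library A, WT library B or Mfn1-/- library A or C was left out. The replicate block called 6 members, and with only the 6 libraries of the comparison 5 were called and 17 had an unadjusted p under 0.05. Here and below, shares of all genes belong to the fit of all 12 groups and are not given for the other fits. The median log2 fold change of the 35 members was 0.26, against -0.02 over all genes tested.

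At day 0, 3 members were higher and 0 lower, with 10.7% and 10.8% of all genes as background. Etfb, the beta subunit of the electron transfer flavoprotein, was 330, 344 and 418 in Mfn1-/- against 180, 196 and 224 in WT, without overlap (0.86 ± 0.24 on the log2 scale, adjusted p = 0.006). Etfa rose by 0.50 ± 0.14 (adjusted p = 0.0064), as did Hibch, which hydrolyses an intermediate of valine breakdown, by 0.62 ± 0.15 (adjusted p = 0.002). The replicate block called 8 members, and with only the 6 libraries of the comparison 7 were called and 24 had an unadjusted p under 0.05. Leaving out 1 library gave 0 called members without WT library A, 1 without WT library B or Mfn1-/- library C, 2 without WT library C or Mfn1-/- library B and 3 without Mfn1-/- library A.

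At day +3, 12 members were higher and 0 lower in Mfn1-/-, against 10.6% and 10.8% of all genes, and the member median was 0.52. Same-lettered libraries of the 2 lines varied together at this day. With the letter as a replicate block, 21 members were called, 20 higher and 1 lower, without a share of all genes to compare. With only the 6 libraries of the comparison in the fit, 1 was called and 16 had an unadjusted p under 0.05. The differences were not tested between these days. Acsl1, the long-chain acyl-CoA synthetase typical of adipocytes, showed the largest rise, with 1372, 800 and 857 in Mfn1-/- against 285, 311 and 484 in WT (log2 fold change 1.48 ± 0.26, adjusted p = 3.8e-05). Bckdhb, a subunit of the branched-chain ketoacid dehydrogenase, was 642, 423 and 582 against 280, 214 and 284 (1.07 ± 0.19, adjusted p = 5.4e-05). Acad10, of less defined substrate, was 184, 247 and 122 against 97.9, 104 and 59.4 (1.06 ± 0.25, adjusted p = 0.0014), and without WT library C or Mfn1-/- library B it was not called. Acadm, the medium-chain dehydrogenase, was at 959 against 1429 on average (-0.58 ± 0.23, adjusted p = 0.049) and was not called.

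At day +8, 32 of 35 members were higher and 0 lower in the libraries labelled Mfn1-/-, with 23.5% of all genes higher and 26.7% lower. The member median was 2.26 on the log2 scale against -0.07 over all genes. All 7 fatty acid dehydrogenases, all 8 genes of hydration, second oxidation and thiolysis, all 3 electron transfer genes, all 3 genes of propionyl-CoA use and all 7 branched-chain genes were called higher, and 4 of 7 genes of activation and the carnitine shuttle. The 3 not called were Acsl4, Acsl5 and Cpt1a. Between 31 and 34 members were called when any 1 library was left out. The 19 genes of a separate list, of the tricarboxylic acid cycle and of pyruvate dehydrogenase (Pdha1, Pdhb and Dlat), were also all higher, with a median of 1.99. Library A of those labelled Mfn1-/- was the highest of the 3 for 30 of 35 members, and library C the lowest for 28.

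**Figure D2:**
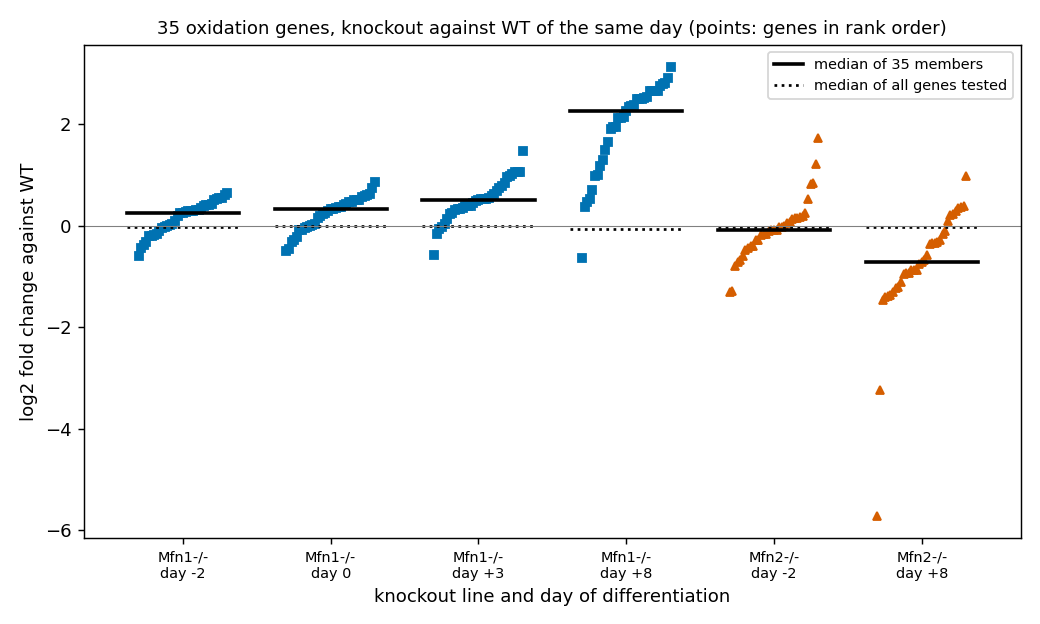
Log2 fold change of each of the 35 oxidation genes, knockout line against WT of the same day, in rank order within each of 6 comparisons (solid bar, member median; dotted bar, median of all genes tested). The member medians are 0.26, 0.33, 0.52 and 2.26 in Mfn1-/- from day -2 to day +8, and -0.08 and -0.72 in Mfn2-/- at day -2 and day +8.

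Among genes of activation and import, Acsl1 was 9583, 10776 and 9803 in the libraries labelled Mfn1-/- at day +8 against 3315, 2808 and 1322 in WT, so that the groups did not overlap (log2 fold change 2.12 ± 0.26, adjusted p = 3.9e-08). Crat, which exchanges acetyl groups between carnitine and CoA, rose by 2.76 ± 0.16 (adjusted p = 5.5e-15). Cpt2, the inner-membrane carnitine palmitoyltransferase, rose by 2.26 ± 0.17 (adjusted p = 1.3e-12). Cpt1a, the outer-membrane enzyme that is rate-limiting for import, was 1078, 1351 and 2013 against 2147, 2685 and 1876, with overlapping groups and a log2 fold change of -0.63 ± 0.21 (adjusted p = 0.012). Exons of Acsl1 overlap Gm45244 and those of Crat overlap Dolpp1 and Gm16323 on the opposite strand, and the strand used in counting is not given in the sources used here.

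The 7 fatty acid dehydrogenases rose by 0.38 to 2.80 on the log2 scale, and these rises were not tested against each other. Acadvl, for very long chains, was 18772, 11719 and 7689 against 2027, 1797 and 1817 (2.66 ± 0.21, adjusted p = 4.6e-12), of which 1151 of 2686 exon bases overlap Dvl2 on the other strand. Acadl, for long chains, was 10784, 8158 and 6278 against 1648, 1627 and 1527 (2.36 ± 0.15, adjusted p = 5.5e-14). Acadm was 9923, 6974 and 4749 against 1354, 1247 and 1059 (2.51 ± 0.23, adjusted p = 1.1e-10), whereas on each earlier day its mean was below that of WT without passing the test. In all 3 genes the spread among the libraries labelled Mfn1-/- was wide, yet the lowest exceeded the highest WT library. Acad9 changed least of this group, by 0.38 ± 0.12 (adjusted p = 0.0064).

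For the later steps of the spiral, Hadha was 23488, 14392 and 7792 in the libraries labelled Mfn1-/- against 2913, 2543 and 1854 in WT (2.53 ± 0.22, adjusted p = 3.9e-11). Hadhb, its partner across the shared start region shown above, was 5762, 4501 and 2344 against 601, 580 and 399 (2.92 ± 0.20, adjusted p = 4.8e-13). Both genes had the same order of libraries in both lines, A above B above C. Of all 35 members, library A was the highest for 30 in those labelled Mfn1-/- and for 11 in WT. Library C was the lowest for 28 and 23, so the order was not particular to this pair. Hadh, for shorter chains, rose by 2.66 ± 0.15 and Eci2, an isomerase for unsaturated chains, by 1.00 ± 0.15. The electron acceptors rose as well. Etfb was 3088, 1610 and 1372 against 215, 250 and 187 and had the largest log2 fold change of the 35, 3.13 ± 0.24 (adjusted p = 3.4e-12), while Etfdh, which passes the electrons to ubiquinone, rose by 1.94 ± 0.14 (adjusted p = 8.2e-13).

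In branched-chain oxidation, Bckdha, the other subunit of the ketoacid dehydrogenase, was 4752, 2403 and 2137 against 426, 396 and 414 (2.81 ± 0.26, adjusted p = 2.9e-10), though 1171 of its 1899 exon bases overlap B3gnt8 on the opposite strand. Bckdhb rose by 2.37 ± 0.19. Acat1, the thiolase of isoleucine breakdown and ketone body use, was 8698, 7662 and 5754 against 1940, 2148 and 1613 (1.94 ± 0.19, adjusted p = 6.5e-10). Ivd, the leucine-specific dehydrogenase, was 718, 660 and 508 against 274, 244 and 314 (1.17 ± 0.22, adjusted p = 3.4e-05), and Acadsb, the short branched-chain dehydrogenase, rose by 0.70 ± 0.17. Pcca, the biotin-bearing subunit of propionyl-CoA carboxylase, was 1435, 1395 and 912 against 360, 419 and 393 (1.65 ± 0.18, adjusted p = 6.8e-09).

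The remaining members followed at day +8. Etfa rose by 2.53 ± 0.14 in the libraries labelled Mfn1-/-, and Decr1, a reductase needed for polyunsaturated chains, by 2.51 ± 0.23, from 798, 804 and 606 in WT to 6621, 4175 and 2603. Acaa2, which splits off acetyl-CoA, was 12240, 5636 and 3883 against 1622, 1706 and 1127, the widest spread of these genes. Acads, for short chains, was 5115, 3400 and 2931 against 739, 613 and 608 (2.51 ± 0.19). Acad10 was 871, 722 and 524 against 82.4, 90.4 and 127 (2.80 ± 0.25), and Acad11, whose exons overlap Ackr4 on the other strand, rose by 1.49 ± 0.15. Hibch was 1173, 1111 and 960 against 212, 213 and 209 (2.34 ± 0.15), and Acad8, the isobutyryl-CoA dehydrogenase of valine breakdown, rose by 0.98 ± 0.13. Mcee, the epimerase of the propionyl-CoA route, was low, at 411, 247 and 376 against 71.5, 61.5 and 101 (2.13 ± 0.27). Acsl3 rose by 1.30 ± 0.18, the smallest rise called among activation genes. In all of these genes the libraries labelled Mfn1-/- lay above all 3 WT libraries.

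Genes outside the members that belong to these routes or act on them were counted from fixed lists, so that the counts do not measure oxidation capacity. Of 18 other fatty acid oxidation genes tested, 13 were higher and 3 lower in the libraries labelled Mfn1-/- at day +8, and of 19 other branched-chain genes 14 were higher and 1 lower. Of all genes 23.5% were higher and 26.7% lower. Cpt1b, the muscle-type import enzyme, averaged 144 against 12.2 in WT (log2 fold change 3.50 ± 0.67), and Cpt1c, a brain-type relative, 116 against 457 (-1.98 ± 0.20). Acacb, an acetyl-CoA carboxylase and not an oxidation enzyme, was among the higher genes of the first list, at 2947 against 223 (3.67 ± 0.38). Bcat1, the cytosolic branched-chain transaminase, was at 182 against 729 (-1.97 ± 0.24), whereas Bcat2, the mitochondrial form, was at 1652 against 394 (2.03 ± 0.20). Of 8 regulators tested 5 were higher and 0 lower, among them Pparg, the master regulator of adipogenesis, at 2329, 1827 and 1735 against 259, 233 and 237.

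In Mfn2-/- at day -2, 4 of 35 members were higher and 6 lower, shares not above the 16.4% and 19.1% of all genes, and the member median was -0.08. Of the 6 lower members, 5 were among the 7 genes of activation and import, and this placement was not tested. Acsl1 was 70.2, 61.6 and 49.9 in Mfn2-/- against 160, 171 and 123 in WT D to F (-1.31 ± 0.26, adjusted p = 0.0001), and Acsl5 was 457, 452 and 455 against 1107, 1204 and 1036 (-1.29 ± 0.18, adjusted p = 5.7e-07). Acsl3, which activates long chains at the endoplasmic reticulum, fell by 0.80 ± 0.18 on the log2 scale. Echs1, the short-chain enoyl-CoA hydratase, was 1495, 1541 and 1421 against 442, 442 and 459 (1.73 ± 0.21, adjusted p = 2.9e-08). Bckdha, whose exons overlap B3gnt8 on the opposite strand as given above, rose by 1.21 ± 0.26. Acadm rose by 0.82 ± 0.23, and without any of 4 single libraries Acadm was not called. With only the 6 libraries of the comparison in the fit, 18 members were called, 6 higher and 12 lower. The share of all genes called in that fit is not given here, so this count has no background to be compared with.

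At day +8, 1 member was higher and 19 lower in Mfn2-/-, with 17.1% of all genes higher and 21% lower, and the member median was -0.72. With all 6 WT libraries of the day as the reference, 13 were called. The falls included 5 of 7 fatty acid dehydrogenases, 4 of 8 genes of the later steps, 3 of 3 electron transfer genes, 2 of 3 genes of propionyl-CoA use, 3 of 7 genes of activation and import, and 2 of 7 branched-chain genes. Library F of the WT was the highest of its group for 33 of 35 members.

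Acsl1 fell furthest. Counts of Acsl1 in Mfn2-/- were 100, 127 and 95.5 against 4925, 4344 and 8620 in WT D to F, or 1.80% of the WT mean (-5.72 ± 0.26, adjusted p = 1.5e-17). Bckdhb was 66.5, 58.1 and 84.0 against 606, 563 and 850 (-3.25 ± 0.19, adjusted p = 5.4e-15), while Bckdha, which works with it in the same enzyme, differed by 0.38 ± 0.26 (adjusted p = 0.24) and was not called. The overlap of Bckdha exons with B3gnt8, given above, applies to its counts here too. Pccb, the other propionyl-CoA carboxylase subunit, was 212, 166 and 191 against 512, 438 and 635 (-1.46 ± 0.31, adjusted p = 0.00027), and Pcca fell by 1.38 ± 0.18 on the log2 scale. Acsl4, which prefers arachidonic acid, was the 1 member that rose, at 1230, 1234 and 1162 against 592, 600 and 640 (0.98 ± 0.20, adjusted p = 0.00011). Cpt1a was 1156, 1065 and 1251 against 1705, 1781 and 1668 (-0.57 ± 0.21, adjusted p = 0.027) and was not called, although the groups did not overlap.

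Acadvl, Acadl, Acadm, Hadha, Hadhb and Etfdh were all lower in Mfn2-/- at day +8, with log2 fold changes between -1.31 and -0.72. Hadha was 1720, 1723 and 1819 against 2955, 2701 and 4162 (-0.87 ± 0.22, adjusted p = 0.0012). Ivd (-0.31 ± 0.22, adjusted p = 0.24) and Acat1 (-0.33 ± 0.19, adjusted p = 0.16) were not called. Decr1 was 328, 327 and 324 against 785, 704 and 1156 (-1.40 ± 0.23), Crat fell by 1.23 ± 0.16 and Etfa by 0.87 ± 0.14 on the log2 scale. Echs1, which was above WT at day -2, was 765, 785 and 821 against 611, 540 and 826 at day +8, with overlapping groups (adjusted p = 0.26). Acad10, Acad8, Eci1, Hibch, Mcee and Acsl3 were not called. In the other lists 9 of 18 fatty acid oxidation genes were lower and 0 higher, and 11 of 19 branched-chain genes were lower and 3 higher. Of all genes 21% were lower and 17.1% higher. Bcat1 was at 49.4 against 274 (-2.46 ± 0.24). Pparg had 0 reads in the 3 Mfn2-/- libraries at day -2 and 1 read in all at day +8, where WT D to F had 960.

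**Figure D3:**
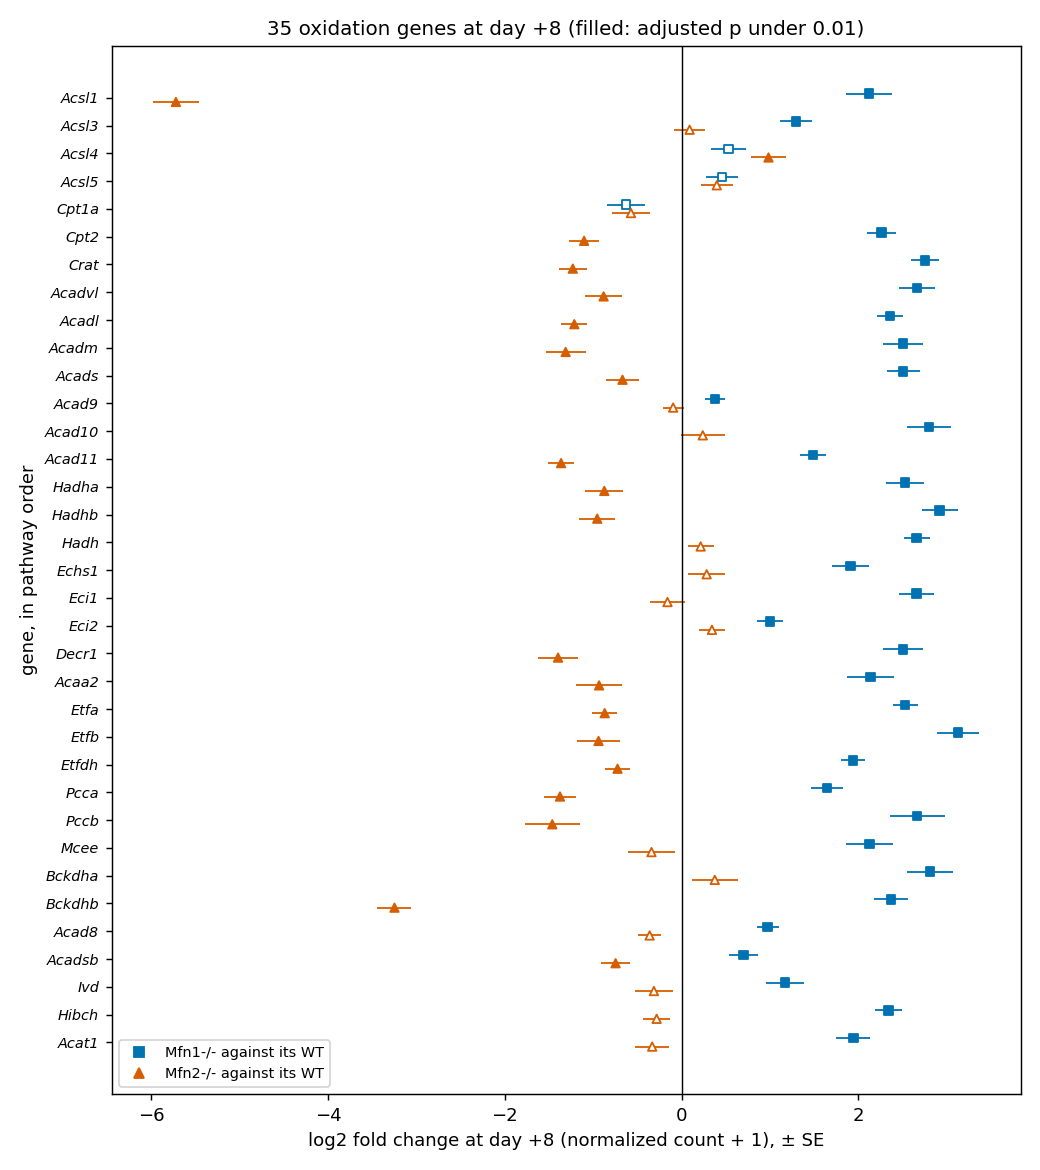
Log2 fold change (± SE) of the 35 oxidation genes at day +8 in the libraries labelled Mfn1-/- against WT A to C (squares) and in Mfn2-/- against WT D to F (triangles); filled symbols have an adjusted p under 0.01. The squares run from -0.63 for Cpt1a to 3.13 for Etfb and the triangles from -5.72 for Acsl1 to 0.98 for Acsl4.

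Changes over time were compared on counts rescaled over all 36 libraries, because the deposited factors were set separately in 6 blocks. In WT A to C from day 0 to day +3, 4 members rose and 0 fell, against 4.04% and 7.37% of 14252 genes. In Mfn1-/- over the same days 17 rose and 1 fell, against 8.76% and 9.04%. With a replicate block 11 rose and 1 fell in WT, and 27 rose and 1 fell in Mfn1-/-. With only the libraries of each comparison limma called 0 in either line, where 14 members in WT and 23 in Mfn1-/- had an unadjusted p under 0.05, while edgeR on the recovered reads of all libraries called 4 and 17. The authors' scale, set separately for each day, put the median of all genes at -0.38 in WT and -0.39 in Mfn1-/-, against -0.01 and 0.01 after rescaling, and on it 0 members were higher and 3 lower in WT, and 4 higher and 1 lower in Mfn1-/-. In WT 1 member was called without library A or B of day 0 or library A of day +3, and 2 without library C of day 0. In Mfn1-/- 5 were called without library A of day +3, 9 without library B of day 0 and 11 without library A of day 0.

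From day -2 to day +8, 5 members rose and 3 fell in WT A to C (8.07% and 7.31% of all genes), and 16 rose and 3 fell in WT D to F (12.9% and 12.6%). On the authors' scale 3 rose and 5 fell in WT A to C. In that set 4 were called without library A of day -2 or library A or B of day +8, and 5 without library B or C of day -2. The 3 that fell in both WT sets were Acsl3, Acsl4 and Acsl5. Acsl1 rose in both, by 2.85 ± 0.26 and 5.13 ± 0.26 on the log2 scale. In the libraries labelled Mfn1-/-, whose Mfn1 RNA was low at day -2 and at the WT level at day +8, 31 rose and 1 fell (20.8% and 22.4%), with a member median of 2.24. In Mfn2-/- 4 rose and 3 fell (9.56% and 8.1%), among them Bckdhb, which fell by 1.22 ± 0.20, and Echs1, which fell by 0.98 ± 0.21. Without column A or C of day -2, 4 were called, and on the authors' scale 5 rose and 2 fell. With only the libraries of the comparison 9 rose and 9 fell. Acsl1 had a change of 0.75 ± 0.26 in Mfn2-/- (adjusted p = 0.03) and was not called.

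**Figure D4:**
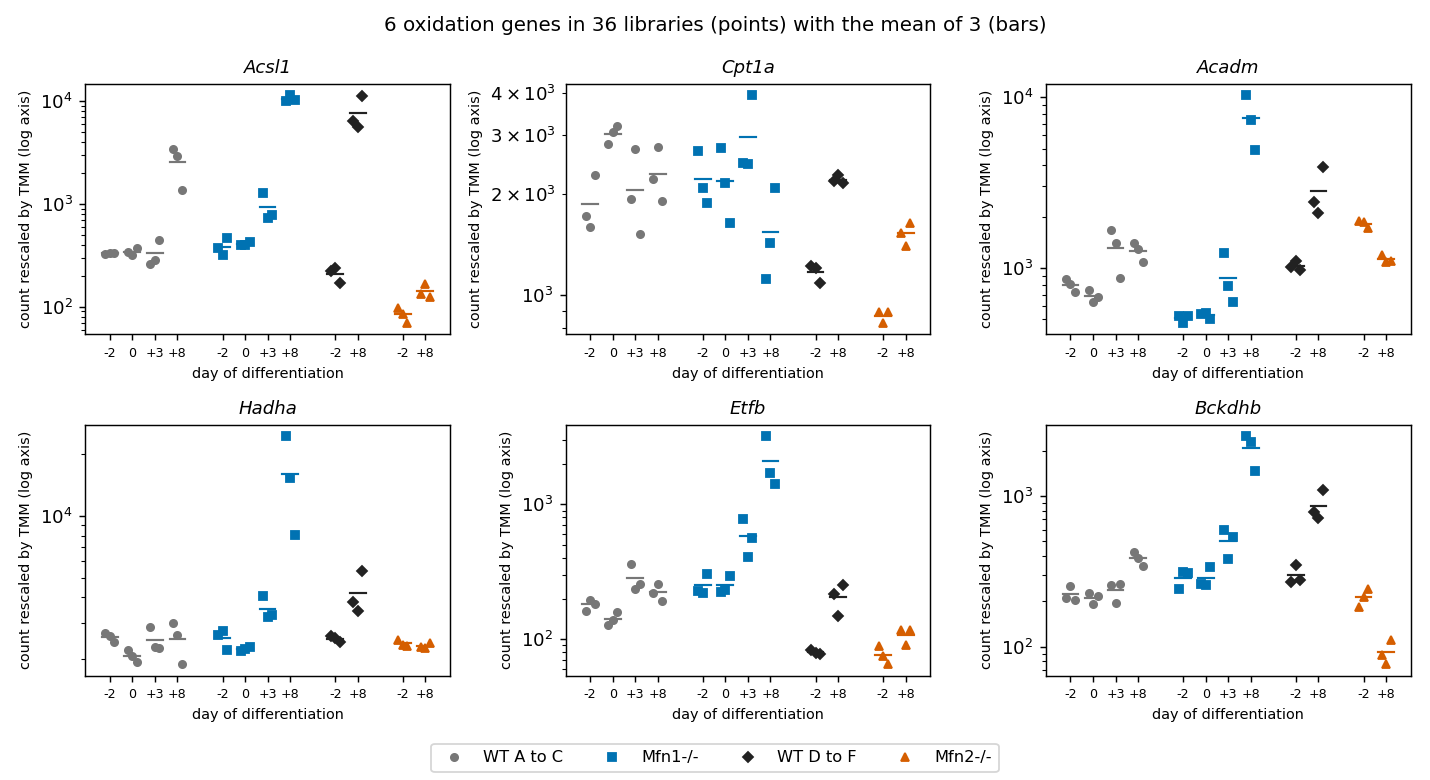
Counts of 6 oxidation genes in 36 libraries (points; bars, mean of 3), rescaled by TMM so that days share a scale, on log axes that differ between panels. Acsl1 lies between 9935 and 11403 in the libraries labelled Mfn1-/- at day +8 and between 126 and 168 in Mfn2-/- at day +8.

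The difference in response between a knockout line and its own WT was tested directly. From day -2 to day +8 the response of the libraries labelled Mfn1-/-, with the same limit on Mfn1 RNA at day +8, exceeded that of WT A to C for 29 members and was below it for 0, against 12% and 14.7% of all genes. Acadm (3.11 ± 0.32) and Eci1 (2.97 ± 0.28), an isomerase for unsaturated chains, showed the largest differences on the log2 scale. The response of Mfn2-/- exceeded that of WT D to F for 3 members and was below it for 11, against 7.16% and 8.34%. The 3 were Acsl3, Acsl4 and Acsl5, with Acsl5 at 1.69 ± 0.26 and Acsl4 at 1.67 ± 0.28, and the lowest were Acsl1 (-4.42 ± 0.36) and Bckdhb (-2.77 ± 0.27). With only the libraries of that comparison in the fit 23 were called, a count for which the share of all genes is not given here.

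The effects of the knockout lines were also compared with each other. At day -2 the Mfn1-/- effect was above the Mfn2-/- effect for 5 of 35 members and below it for 2, near the 12.3% and 8.61% of all genes. The 2 were Echs1 (-1.45 ± 0.29) and Acadm (-1.42 ± 0.32), and Acsl5 (1.59 ± 0.26) and Acsl1 (1.56 ± 0.36) were the highest. With only the libraries involved 12 were called. At day +8 the effect in the libraries labelled Mfn1-/- was above for 30 members and below for 0, against 18.9% and 18.1%, and the member median difference was 2.82. Acsl1 (7.84 ± 0.36) and Bckdhb (5.62 ± 0.27) differed most. The 5 not called were Acsl4, Acsl5, Cpt1a, Acad9 and Eci2. The 2 effects had different WT sets as reference. At day +8 the mean read share of the members was 0.247% in WT A to C and 0.401% in WT D to F. The part of this in the difference between effects was not tested.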

How the data were processed

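The deposited values were gene counts from RNA-seq of 36 libraries (polyA-selected, paired-end), which the authors obtained with cutadapt, STAR, SAMtools and featureCounts on GRCm38 and divided by 1 factor per library; versions are not given in the sources used here. This deposited signal was scaled by the authors separately in 6 blocks of 6 libraries (a knockout and its WT at 1 day). Dividing each value by its library's step gave whole reads (within 0.01) for 100% of values. Of 16623 lines, 19 symbols in 64 to 729 identical lines were merged, leaving 14761 genes. Mfn2-/- columns were mapped to their group only, since their letters differ from the labels.

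Log2(normalised count + 1) was fitted with limma 3.58.1 (trend and robust options, 12 group means) over the 14293 genes that reached 10 in 3 or more libraries. Changes between days used TMM-rescaled counts (edgeR 4.0.16; 14252 genes). Genes were called at a Benjamini-Hochberg adjusted p under 0.01. Log2 fold changes on this scale understate those of low genes. The alternatives were pseudocounts of 0.5 and 5, other filters, scalings and thresholds, fewer or more libraries, a replicate block, leaving out each library, and edgeR and DESeq2 1.42.0 on the recovered reads. The edgeR quasi-likelihood test called between 1752 and 7089 of 14293 genes per comparison. Scaling by total reads was added after seeing the data. A limma fit of the same form was tested on simulated counts with known changes, for Mfn1-/- against WT A to C at day -2 only. That simulation held no shared deviation of same-lettered libraries. The named members were up to 3 called rises and falls per knockout comparison (groups not overlapping, mean at least 100), up to 2 each way in tests of differences, and 12 enzymes fixed by role. The members, lists and tests were chosen with earlier results of these data known. Same-lettered libraries of Mfn1-/- and WT deviated together, with correlations of 0.30, 0.42 and 0.54 at day +3 and 0.20, 0.19 and 0.29 at day +8, while at day -2 and day 0 1 letter each was under 0.1 (0.04 and 0.07). Gene coordinates and exon overlaps are from GENCODE M21 and promoters from RefSeq. Coordinates of sequences are GRCm38.p6.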

Additional observations from a re-analysis of the deposited data

Results flagged for a closer look

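No group had enough libraries for a test of single outlying samples. The results below differed between groups by the direct test of the difference in limma (adjusted p under 0.01). Over the response from day -2 to day +8, the libraries labelled Mfn1-/- differed from WT A to C in 29 of 35 members, all above, where 12% of all genes were above and 14.7% below, with Acadm at 3.11 and Eci1 at 2.97 on the log2 scale. Mfn2-/- differed from WT D to F in 14 members, 3 above and 11 below, where 7.16% of all genes were above and 8.34% below, with Acsl5 at 1.69, Acsl4 at 1.67, Bckdhb at -2.77 and Acsl1 at -4.42. The effects of the 2 knockout lines differed in 7 members at day -2, 5 above and 2 below, a share near that of all genes (12.3% above and 8.61% below), with Acsl5 at 1.59, Acsl1 at 1.56, Acadm at -1.42 and Echs1 at -1.45. At day +8 they differed in 30 members, all above, where 18.9% of all genes were above and 18.1% below, with Acsl1 at 7.84 and Bckdhb at 5.62. Each line's other properties, the markers of adipocytes and of mesothelium given above, and at day +8 the level of Mfn1 RNA in the libraries labelled Mfn1-/-, moved with these differences, and their part in them was not tested. The effects of the knockout lines were taken against separate WT sets, which differed at day +8, and the part of that was not tested.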

How the results depend on the processing

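No named fold change changed sign, but on the authors' scale, which put the median of all genes at -0.38, WT A to C from day 0 to day +3 had 0 members higher and 3 lower. For Mfn1-/- against WT at day -2 (1 member called) the counts were 5 at an adjusted p under 0.05, 2 with quantile normalization, 5 with only the 6 libraries, 6 with the replicate block, 2 with all 6 WT libraries, 2 with DESeq2 and 0 to 1 on leaving out 1 library. At day 0 (3 called) they were 7, 5, 7 and 8 in the same order for the first 4, 5 with DESeq2 and 0 to 3 on leaving out 1. At day +3 (12 called) only the 6 libraries gave 1, and the replicate block 21. Mfn2-/- against WT gave 18 at day -2 with only the 6 libraries, and 13 at day +8 with all 6 WT libraries. WT A to C from day 0 to day +3 (4 called) gave 11 at 0.05, 0 with only its libraries, 12 with the replicate block and 1 to 6 on leaving out 1. Mfn1-/- over those days (18 called) gave 5 on the authors' scale, 0 with only its libraries, 28 with the replicate block and 5 to 20 on leaving out 1. From day -2 to day +8, WT A to C (8 called) gave 4 to 8 on leaving out 1, and Mfn2-/- (7 called) 11 at 0.05, 18 with only its libraries and 4 to 5 on leaving out 1. The response difference of Mfn2-/- (14 called) gave 23, and the difference between lines at day -2 (7 called) 12, each with only the libraries involved. The replicate block changed no other count by over 1.5 times, and in 12 of 12 cases a library correlated best with its own letter. Scaling by total reads, chosen after seeing the data, moved no count by over 1.5 times. The authors' scale moved the median of all genes in changes between days, for example to -0.39 in Mfn1-/- from day 0 to day +3. Causes of these differences were not tested, and the counts under other settings are given without the share of all genes in those settings.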
